A study of Homo sapiens with 6 samples.

Results

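The anoctamins, also called the TMEM16 family, are membrane proteins that answer to intracellular calcium, and 8 of the 36459 genes in the count table are described here: ANO1, ANO4, ANO5, ANO6, ANO7, ANO8, ANO9 and ANO10. They were picked by gene symbol, and they were selected on measured values of the same contrast that is described below, so their differences are given as a description with no p-value, and nothing is read from their calls. The family has 10 genes, and the other two, ANO2 and ANO3, are given beside the members. RNA came from PC9, an established human non-small cell lung cancer line that depends on mutant EGFR. The 3 parental libraries were made from 3 independent cultures without drug. The 3 persister libraries were made from cells that remained after 6 days in 15 µM erlotinib, an EGFR kinase inhibitor, with material from 9 cultures combined into them. Both groups are the same line with no engineered allele, and the results speak for 1 line. Poly-A RNA was sequenced to a depth of 29476725 to 34893782 gene counts a library.

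Anoctamins form dimers and fall into channels and lipid scramblases. When calcium binds, the channels let chloride cross the membrane, which drives fluid secretion in epithelia and the firing of smooth muscle. The scramblases let phospholipids move between the leaflets of the membrane, which exposes phosphatidylserine on the cell surface. ANO1 (TMEM16A) is the best known chloride channel of the family and is found in airway and gland epithelium, and its gene lies near CCND1 on chromosome 11 in a region that is often amplified in squamous carcinomas. ANO6 (TMEM16F) is a scramblase needed for platelet procoagulant activity and is widely expressed.

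ANO1 was the member with the largest difference between the groups. Its level was 5.33-fold lower in persister cells, while the other 5 members with enough counts differed by less than 1.5-fold in either direction. ANO6, the scramblase, was the most abundant member in both groups and was slightly higher in persister cells. ANO1 went from 28.8% ± 0.909 (SD, n = 3) to 6.78% ± 0.154 (SD, n = 3) of all anoctamin transcripts with an annotated length. ANO4 and ANO5 were near 0 in every library.

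The ANO1 gene (ENSG00000131620.18) spans chr11:69985907-70189530 on the plus strand of GRCh38 in the GENCODE 44 annotation. Of its counts on annotated transcripts nearly all were on 2 protein-coding ones, ANO1-202 with 26 exons and ANO1-208 with 28 exons. In the annotation they begin 92.41 kb apart, and of the annotated transcripts with counts ANO1-208 alone holds exon 8 (numbered from its own first exon), an internal coding exon of 66 bases at chr11:70111126-70111191 that adds 22 codons. Exons 15 (chr11:70152450-70152461, 12 bases, 4 codons) and 17 (chr11:70155911-70155988, 78 bases, 26 codons) are in both and are missing from the shorter ANO1-201. ANO1-208 has 1049 codons and ANO1-202 has 986, and the rest of that difference lies at their starts, where the first exons differ. The 3 internal exons are printed because each is left out whole by ANO1-201 or ANO1-202. Another internal coding exon, at chr11:70103066-70103164, is left out by the measured transcript ANO1-209 and is not printed. The printed exons read 5′ to 3′ on the plus strand, and capitals mark the internal exon that ANO1-208 has and ANO1-202 lacks.
ANO1 exon 8: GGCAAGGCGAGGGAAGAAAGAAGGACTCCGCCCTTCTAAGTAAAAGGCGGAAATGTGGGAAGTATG
ANO1 exon 15: gaggctgtcaag
ANO1 exon 17: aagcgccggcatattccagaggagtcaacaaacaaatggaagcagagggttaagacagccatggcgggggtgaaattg

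The 250 bases before the annotated start of ANO1-208 are printed because ANO1 was the member that differed most. The window is chr11:69985657-69985906 on the plus strand and equals the RefSeq promoter entry of ANO1 (GRCh38.p14), a table that held 6 of the 8 members. Capitals mark the GC box GGGCGG on either strand.
Before ANO1-208: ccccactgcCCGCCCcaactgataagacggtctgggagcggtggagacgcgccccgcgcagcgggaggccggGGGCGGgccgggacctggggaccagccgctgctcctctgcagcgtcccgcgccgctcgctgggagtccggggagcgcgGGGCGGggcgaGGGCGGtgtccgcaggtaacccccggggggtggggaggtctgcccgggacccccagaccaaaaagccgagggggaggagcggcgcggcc

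This window was 78.0% G or C, held 30 CpG dinucleotides and had 4 GC boxes. Over 35116 RefSeq promoter windows of the same length the medians were 58.0% and 11 CpG, and 42.6% held a GC box. The other 5 of the 6 motifs searched on both strands were not in these letters. They were the AP-1 motif TGANTCA (in 6.57% of all windows), the TATA box TATAAA (10.7%), the E-box CACGTG (6.34%), the amino acid response motif TGATGNAA (3.14%) and the STAT motif TTCNNNGAA (6.57%). For ANO1 only the window before ANO1-208 was searched. ANO1-202, which held more of the ANO1 counts, begins 92.41 kb away, and the bases before its start were not examined.

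The chloride channel ANO1 gave 119.7, 124 and 123 CPM (counts scaled to a library of 1000000) in the parental libraries and 22.1, 23.4 and 23.1 CPM in the persister libraries. The 3 persister values lay together far below the 3 parental values, and the groups did not overlap. The means were 122 CPM ± 2.07 (SD, n = 3) in parental cells and 22.9 CPM ± 0.666 (SD, n = 3) in persister cells, a log2 difference of -2.41 (SE 0.043). Behind these values were 4121, 4206 and 4142 counts in parental and 646, 736 and 791 in persister libraries. Among the 14626 genes that passed the low-count filter, ANO1 had the 138th largest fall by log2 difference. In bulk RNA, fewer cells with the message and less message per cell cannot be told apart.

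ANO6 (ENSG00000177119.17, chr12:45215987-45482280, plus strand), the scramblase of platelets, gave 182, 172 and 184 CPM in parental libraries. In persister libraries it gave 207, 204 and 204 CPM. All 3 persister values were above all 3 parental values, but the step was small, at 1.14-fold and a log2 difference of 0.19 (SE 0.037). The means were 179 CPM ± 6.41 (SD, n = 3) and 205 CPM ± 1.49 (SD, n = 3).

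ANO10 (ENSG00000160746.13, chr3:43354859-43691594, minus strand), an intracellular member whose loss causes a recessive cerebellar ataxia, gave 40.5, 40.4 and 42.3 CPM in parental and 33.1, 32.9 and 33.4 CPM in persister libraries. The groups did not overlap, the persister values lay within a narrow range, and the log2 difference was -0.31 (SE 0.044). ANO8 (ENSG00000074855.11, chr19:17323223-17334855, minus strand) tethers the endoplasmic reticulum to the plasma membrane, where it helps to assemble calcium signalling complexes. It gave 13.6, 15.98 and 16.5 CPM in parental and 12.6, 11.6 and 12.1 CPM in persister libraries. The lowest parental library was close to the highest persister library, and the log2 difference was -0.34 (SE 0.082).

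ANO9 (ENSG00000185101.13, chr11:417933-442011, minus strand), an epithelial member, gave 5.55, 6.52 and 5.44 CPM in parental and 3.73, 3.97 and 4.24 CPM in persister libraries. The groups did not overlap, and the log2 difference was -0.55 (SE 0.110), the second largest fall among the members. ANO7 (ENSG00000146205.15, chr2:241188509-241225976, plus strand) is best known from the prostate. It gave 2.99, 3.67 and 3.27 CPM in parental and 4.45, 4.29 and 4.13 CPM in persister libraries. The persister values were above the parental ones without overlap, at a log2 difference of 0.37 (SE 0.116), on 103 to 141 counts per library.

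**Figure D1:**
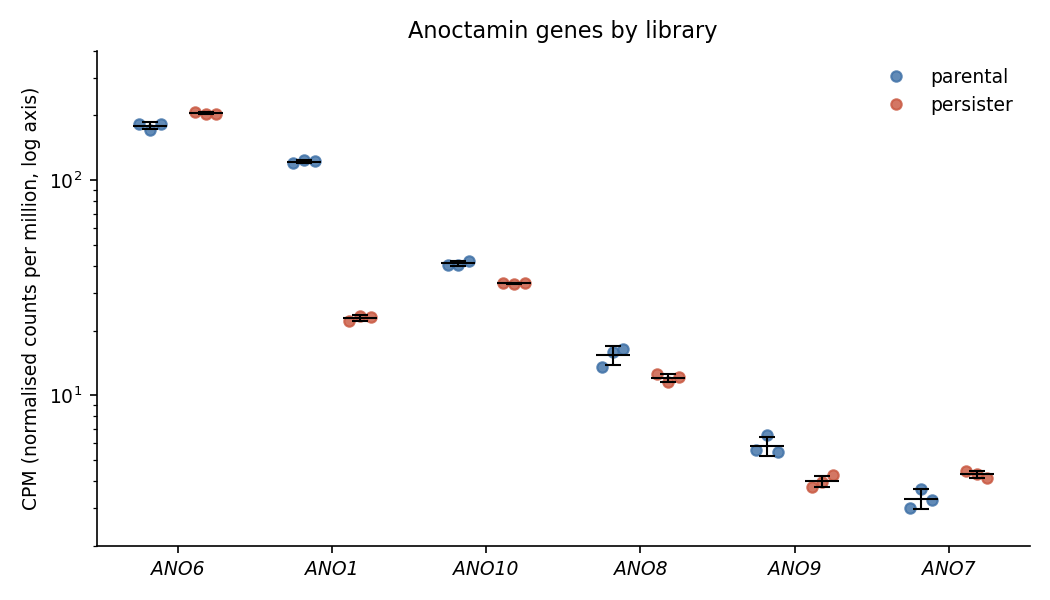
CPM, normalised counts (log axis), of the 6 anoctamin genes with enough counts, as 1 point per library for parental and persister cells, with black bars for the mean and SD of 3 libraries. The ANO1 points drop from 119.7 to 124 CPM in parental to 22.1 to 23.4 CPM in persister libraries, while the 2 groups of each other gene lie close together.

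ANO4 (chr12:100717526-101128641, plus strand), a member of the nervous system, had 1 count in persister replicate 2 and none in the other 5 libraries. ANO5 (chr11:21782659-22283567, plus strand), whose loss causes a limb-girdle muscular dystrophy, had 0, 0 and 2 counts in parental and 0, 1 and 1 counts in persister libraries. ANO2, the chloride channel of olfactory neurons, had 1 count in all 6 libraries together, and ANO3, a gene of dominant dystonia, had 1 count in each of 2 libraries. A limit of 3 counts corresponds to 0.0872 to 0.103 CPM in these libraries, so these 4 genes were at or below what could be told from 0, and no fold is given. The limit covers counting error only.

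Of the 8 members, 6 passed the low-count filter. Under an adjusted p limit of 0.01 in edgeR's quasi-likelihood test over all genes, ANO6 was called higher and ANO1, ANO8, ANO9 and ANO10 were called lower, and ANO7 was not called. That is 5 of 6, where 56.8% of all tested genes were called, 28.7% higher and 28.1% lower. The groups did not overlap in 6 of 6, where they did not overlap in 71.3% of all tested genes. The members were chosen with this contrast in view, so nothing is read from these counts. Their median log2 difference was -0.33, beside -0.01 over all tested genes. The call of ANO7 was gained without parental replicate 2 (log2 difference 0.45), and that of ANO8 was lost without parental replicate 3 (-0.29), persister replicate 2 (-0.31) or persister replicate 3 (-0.35).

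Levels were compared between genes only per transcript length, as TPM, the share of 1000000 transcripts, from the transcript counts and annotated lengths. In parental cells the order was ANO6 at 59.4 TPM ± 1.95 (SD, n = 3), ANO1 at 48.5 ± 2.02, ANO10 at 45.6 ± 1.67, ANO8 at 7.18 ± 0.806, ANO9 at 4.38 ± 0.607 and ANO7 at 3.09 ± 0.407 TPM. ANO1 (46.2, 49.5 and 49.8 TPM) and ANO10 (46.4, 43.6 and 46.6 TPM) overlapped as neighbours in this order. All other neighbours kept apart in every library.

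In persister cells the order was ANO6 at 70.2 TPM ± 2.45 (SD, n = 3), ANO10 at 37.7 ± 0.451, ANO1 at 8.83 ± 0.399, ANO8 at 5.86 ± 0.213, ANO7 at 3.99 ± 0.209 and ANO9 at 3.56 ± 0.410 TPM. ANO1 thus came after ANO10, at 9.28, 8.53 and 8.67 TPM, still above the 5.74 to 6.11 TPM of ANO8. ANO7 and ANO9 overlapped. The ANO1 levels leave out 8.39% to 9.63% of its counts, which were on transcripts without an annotated length here. With each gene count set over its longest transcript instead, both orders were as given, but ANO1 was further above ANO10 in parental cells, at 71.8 against 37.3 TPM.

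The summed level of the family was 165, 166 and 173 TPM in parental and 133.5, 128 and 129 TPM in persister libraries. The groups did not overlap, with means of 168 TPM ± 3.93 (SD, n = 3) and 130.2 TPM ± 2.90 (SD, n = 3). The share of ANO6 went from 35.3% ± 0.770 (SD, n = 3) to 53.9% ± 0.676 (SD, n = 3), and that of ANO10 from 27.1% to 28.9%. Most of the difference in the sum was thus carried by ANO1, whose own level differed by more than the sum did.

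**Figure D2:**
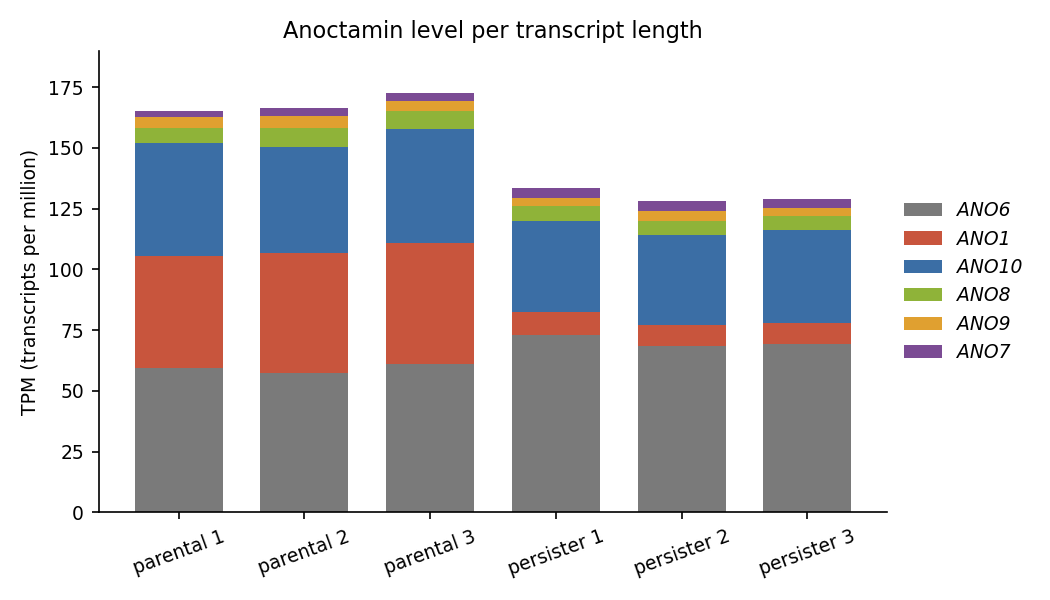
Level per transcript length (TPM) for the 6 anoctamins with enough counts, stacked for each of the 6 libraries. The summed level is 165 to 173 in parental and 128 to 133.5 in persister libraries, and the ANO1 band shrinks from between 46.2 and 49.8 to between 8.53 and 9.28.

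The fall of ANO1 was spread over both of its main annotated transcripts. Whether the transcripts without an annotation here hold exon 8 is not known. ANO1-202 held 2134, 2369 and 2126 counts in parental and 343, 446 and 409 in persister libraries, and its log2 difference was -2.39 (SE 0.096). ANO1-208 held 1523, 1408 and 1502 counts in parental and 241, 223 and 302 in persister libraries, with a log2 difference of -2.45 (SE 0.097). Both were lower by about as much as the gene.

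As a share of the gene, ANO1-202 made up 51.8%, 56.3% and 51.3% in parental libraries. In persister libraries its share was 53.1%, 60.6% and 51.7%. ANO1-208 made up 37.0%, 33.5% and 36.3% in parental and 37.3%, 30.3% and 38.2% in persister libraries. The shares of both transcripts overlapped between the groups, and persister replicate 2 had the highest ANO1-202 and the lowest ANO1-208 share.

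Exon 8, printed above, was thus held by 39.4% ± 2.23 (SD, n = 3) of the counts on annotated transcripts that span it in parental cells. The share was 38.9% ± 4.81 (SD, n = 3) in persister cells, a difference smaller than the spread between replicates. Exon 17 was held by 98.1% to 98.5% of such counts in parental and 98.8% to 100% in persister libraries. The 3 shorter coding transcripts had few counts. ANO1-201 had 43, 28 and 43 counts in parental and 0, 0 and 8 in persister libraries, ANO1-207 had 28, 30 and 23 against 7, 0 and 0, and ANO1-209 had 19, 18 and 49 against 0, 0 and 0. ANO1-203, ANO1-204, ANO1-205 and ANO1-206 were at 0 in all libraries. At the depth of ANO1 in persister cells, 3 counts are 0.379% to 0.464% of the gene.

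The counted versions of ANO1-202 and ANO1-208 were older than those in the annotation, so an exon at their ends may differ from the one counted. The transcript counts are estimates that divide reads over shared exons.

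**Figure D3:**
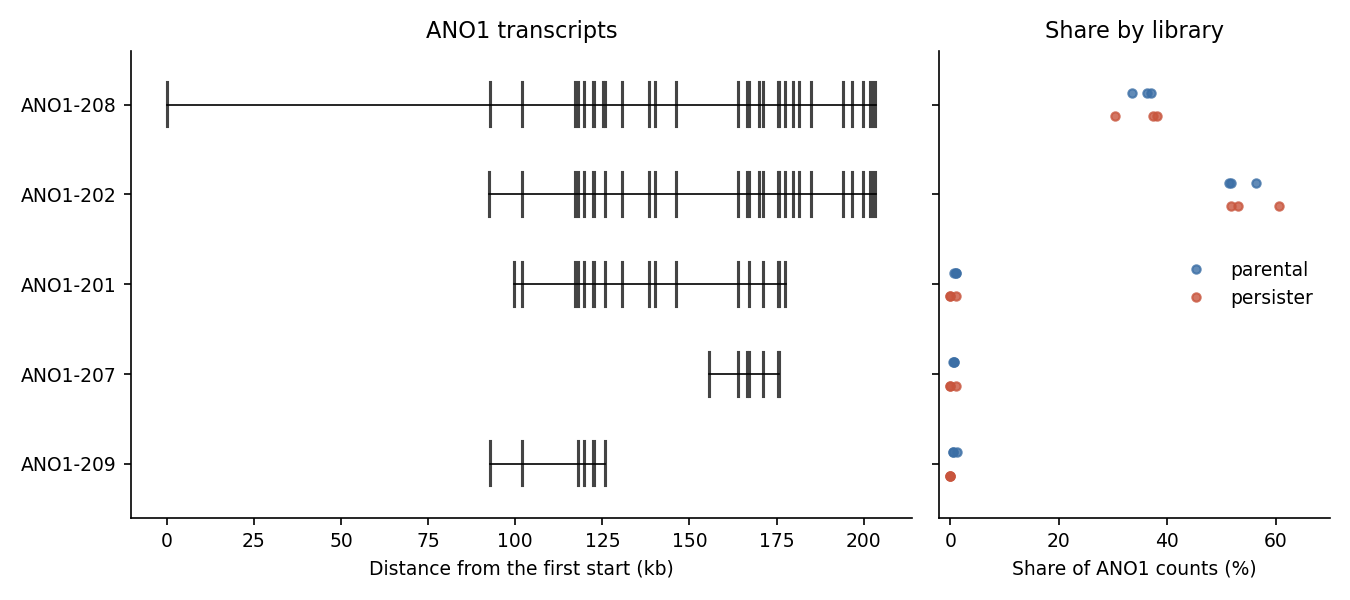
On the left, exons (boxes, widened to at least 0.3 kb to be visible) of the 5 annotated ANO1 transcripts with counts, drawn as distance in kb from the start of ANO1-208. On the right, the share of ANO1 counts on each in percent, 1 point per library, where ANO1-202 and ANO1-208 hold most counts and the parental and persister points of both overlap.

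Over all members, 22 of 66 transcripts passed the filter and 2 were called, both of them from ANO1 and both lower. Of all tested transcripts 7.8% were called. No share of a transcript with at least 10% of a member's counts kept the groups apart.

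ANO6 was mostly its coding transcript ANO6-201, with 87.9% ± 1.41 (SD, n = 3) of the counts in parental and 86.5% ± 2.63 (SD, n = 3) in persister cells. ANO6-202 followed, with 7.90% to 10.3% and 8.97% to 13.5%. ANO8 counts were on ANO8-201, with 98.6% ± 1.75 (SD, n = 3) and 97.6% ± 1.54 (SD, n = 3). ANO10 was divided over 3 coding transcripts, ANO10-203 with 46.1% and 49.0%, ANO10-202 with 25.5% and 22.8%, and ANO10-201 with 14.0% and 15.2% in parental and persister cells.

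ANO7 and ANO9 stood apart in what kind of transcript carried them. Of the ANO7 counts, 94.5% to 99.2% in parental and 97.7% to 100% in persister libraries were on transcripts annotated as retaining an intron, a class without an annotated coding sequence. ANO7-209 held 62.0% ± 8.33 (SD, n = 3) and 62.5% ± 7.96 (SD, n = 3), and ANO7-205 held 29.6% ± 14.1 (SD, n = 3) and 27.5% ± 5.53 (SD, n = 3). They lie at chr2:241218185-241225184 and chr2:241218294-241225377, in the last part of the gene. The CPM of ANO7 given above was therefore assigned mostly to these transcripts and not to a coding one. That division of reads is an estimate on 103 to 141 counts per library. ANO7-210, an annotated transcript of 25 exons, was not among those counted. For ANO9 the coding transcript ANO9-201 held 64.3% ± 9.56 (SD, n = 3) in parental and 59.1% ± 4.14 (SD, n = 3) in persister cells. Transcripts with a retained intron held the rest, ANO9-205 with 15.7% and 18.0% and ANO9-207 with 12.7% and 12.6%.

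Some members overlap other genes. ANO8 meets the end of DDA1 on the opposite strand, and ANO10 overlaps ABHD5 and SNRK on the opposite strand. ANO1 overlaps noncoding genes on both strands. Whether the counting used strand is not given in the sources used here, so reads from overlapping exons cannot be assigned with certainty.

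The 5 tested genes whose profile was most like that of ANO1 were found by the root mean square difference of centred log2 CPM over the 6 libraries. They were AKR1B10 (0.034), an aldo-keto reductase, ALDH3A1 (0.057), an aldehyde dehydrogenase, HMGA2 (0.062), a chromatin protein, FOS (0.068), a subunit of AP-1, and SRPX2 (0.070), a secreted protein. AKR1B10 averaged 469 CPM in parental and 86.3 CPM in persister cells, and FOS averaged 115 CPM and 20.5 CPM. The likeness rests mostly on the step between the 2 groups, since the libraries within a group differed little.

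Around ANO1 on chromosome 11 the genes did not move as 1 block. Of 11 neighbours, 9 were tested, of which 3 were higher and 4 lower, beside 28.7% and 28.1% of all tested genes. FADD, an adaptor of death receptors that begins 13.8 kb after the end of ANO1, was at 46.0 CPM ± 2.32 (SD, n = 3) in parental and 47.5 CPM ± 2.62 (SD, n = 3) in persister cells (log2 difference 0.05, adjusted p 0.477 in edgeR, and a log2 difference of -0.0071 when scaled by library size alone). PPFIA1, a liprin 81.2 kb away, rose from 139 to 172 CPM (log2 difference 0.30, SE 0.038, edgeR adjusted p 3.33e-05). On the other side CCND1, the G1 cyclin, lies 331 kb away and fell from 447 to 369 CPM (-0.27, SE 0.037, adjusted p 6.38e-05). CTTN, the actin regulator cortactin, lies 209 kb away on the side of FADD and PPFIA1 and fell by 0.24 on the log2 scale. MYEOV, 644 kb away on the side of CCND1, fell as well, at a log2 difference of -1.66 (SE 0.050, adjusted p 5.09e-10). LTO1 (0.53) and SHANK2 (0.21) rose. The fourth lower neighbour, named after its values were seen since its level is low, was the growth factor FGF19, 282 kb away, which fell from 100 to 139 counts in parental to 3 to 9 counts in persister libraries (-4.20, SE 0.294, adjusted p 3.47e-07), a larger fall than that of ANO1. The call of SHANK2 was lost with counts summed from transcripts (adjusted p 0.0153).

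The calcium that opens ANO1 comes from stores and from entry through the plasma membrane. Of 27 genes of calcium release, entry and pumping, 23 were tested. Of these, 15 were higher and 3 lower in persister cells, beside 28.7% and 28.1% of all tested genes. Their median log2 difference was 0.29. All 3 IP3 receptors, which release calcium from the endoplasmic reticulum, rose, ITPR1 from 7.49 to 11.04 CPM (log2 difference 0.56, SE 0.081, edgeR adjusted p 9.95e-05), ITPR2 from 39.6 to 64.1 CPM (0.69, adjusted p 8.84e-06) and ITPR3 from 219.7 to 248 CPM (0.18, adjusted p 0.00513). The call of ITPR3 was lost by upper quartile scaling (adjusted p 0.0193), by library size alone (0.0415) and without parental replicate 3 or any 1 persister library (0.0105 to 0.0273). ATP2B1 (0.96) and ATP2B4 (0.46), the pumps that take calcium out of the cell, rose, and so did the phospholipase PLCB4 (0.53). ORAI3, a subunit of store-operated entry channels, fell from 53.0 to 17.0 CPM (-1.64, SE 0.058, adjusted p 1.69e-09). The other genes of store-operated entry in the list were all called higher, at log2 differences of 0.24 to 0.47. The phospholipases PLCB3 (-0.43) and PLCG2 (-0.47) fell.

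Of 9 genes whose products bind or regulate ANO1, 7 were tested. Of these, 3 were higher and 2 lower, beside 28.7% and 28.1% of all tested genes. EGFR, the target of erlotinib and a reported partner of ANO1, rose from 618 CPM ± 25.7 (SD, n = 3) to 876 CPM ± 25.1 (SD, n = 3), at a log2 difference of 0.50 (SE 0.040, edgeR adjusted p 1.00e-06). ANO1 and EGFR messages thus differed in opposite directions. ESYT1, a tether of the endoplasmic reticulum, rose by 0.66 on the log2 scale, and MSN, which links membrane proteins to actin, by 0.23. EZR, of the same family as MSN, fell from 439 to 397 CPM (-0.14, adjusted p 0.00555), and CAMK2G, a calcium-dependent kinase, had -0.30. The call of EZR was lost with counts summed from transcripts (adjusted p 0.0844) and without parental replicate 1 or 3 or persister replicate 1 or 3 (0.0110 to 0.0265).

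Among the structural relatives of the family, the TMEM63 and TMC proteins, 9 of 11 genes were tested. Of these, 1 was higher and 3 lower, beside 28.7% and 28.1% of all tested genes, with a median of -0.17. TMC6 fell from 52.6 to 26.7 CPM (-0.98, edgeR adjusted p 1.03e-06). A pair of genes with low counts was named after their values were seen. TMC1, a channel of hair cells, fell from 96 to 107 counts in parental to 12 to 21 counts in persister libraries (-2.42, SE 0.211, adjusted p 2.03e-06), and TMEM63C, the 1 higher gene, rose from 13 to 23 counts to 33 to 43 counts (1.30, SE 0.283, adjusted p 0.00189). The call of TMEM63C was lost without parental replicate 3 (0.0110) or persister replicate 1 (0.0109). TMC4 was lower in the gene table, at 151 and 88.2 CPM (-0.77, adjusted p 1.56e-07), but not with counts summed over its transcripts, where the log2 difference was 0.43 (adjusted p 0.384). With a limit of 0.05 in place of 0.01, 7 of these genes were called, and the share of all tested genes at that limit is not given here.

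Other scramblases moved both ways. Of 18 genes 12 were tested, 4 higher and 6 lower, beside 28.7% and 28.1% of all tested genes, and their median was -0.35. XK, a scramblase of the red cell membrane, rose from 7.86 to 13.2 CPM (0.75, edgeR adjusted p 6.18e-06), as did PLSCR3 (0.58) and the autophagy scramblase ATG9A (0.36). PLSCR1 fell from 51.6 to 36.8 CPM (-0.49, adjusted p 2.80e-06), as did PLSCR4 (-0.77) and TMEM41B (-0.55), a scramblase of the endoplasmic reticulum. The list of flippases, which carry lipids back to the inner leaflet against the scramblases, also holds their CDC50 subunits, and its tested genes were mostly higher. Of 11 tested (17 listed, subunits included), 7 were higher and 1 lower, beside the same shares of all tested genes, with a median of 0.42. ATP10D rose from 58.7 to 96.02 CPM (0.71, adjusted p 1.66e-07), ATP11A by 0.47 and ATP9A by 0.44, while ATP8B3 fell (-0.78).

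Of 27 other chloride channel genes 18 were tested, 4 higher and 6 lower, beside 28.7% and 28.1% of all tested genes. Their median was -0.09, and 6 rather than 10 were called without persister replicate 1. Over all genes, 7426 of 14835 were called without that library and 8307 of 14626 with every library. CLCN7, the exchanger of the lysosome, rose from 62.0 to 84.0 CPM (0.44, edgeR adjusted p 2.78e-04), and the endosomal exchangers CLCN4 (0.69) and CLCN3 (0.17) rose. The volume-regulated channel subunit LRRC8D fell from 115 to 87.7 CPM (-0.40, adjusted p 7.12e-06), and CLCN6 (-0.60) and TTYH1 (-0.76) fell. The call of CLCN3 was lost by upper quartile scaling (0.0175), by library size alone (0.0317), with summed transcripts (0.154) and without persister replicate 1 (0.0185) or 2 (0.0104), and that of TTYH1 with summed transcripts (0.150).

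Of 20 genes of chloride carriers 13 were tested, 4 higher and 5 lower, beside 28.7% and 28.1% of all tested genes. Their median was -0.16. SLC26A2, which exchanges sulfate for chloride, rose from 54.8 to 127 CPM (1.22, SE 0.066, edgeR adjusted p 5.03e-08), and the potassium-chloride cotransporter SLC12A4 (0.65) and the anion exchanger SLC4A2 (0.28) rose. The potassium-chloride cotransporter SLC12A7 (-0.23) and the exchanger SLC26A6 (-0.54) fell. Named after their values were seen, since their counts are low, SLC26A9 (-3.98, adjusted p 1.88e-05, 30 to 46 counts in parental and 1 to 4 in persister libraries) and SLC26A4 (-1.85, adjusted p 1.32e-04) fell and SLC26A7 (1.81, adjusted p 0.00175) rose. The call of SLC26A7 was lost with DESeq2 (0.0167) and without parental replicate 3 (0.0102). The calls of SLC12A7, without parental replicate 3 or persister replicate 1 or 2 (adjusted p 0.0131 to 0.0173), and of SLC26A6, without persister replicate 1 (0.0120), were lost.

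**Figure D4:**
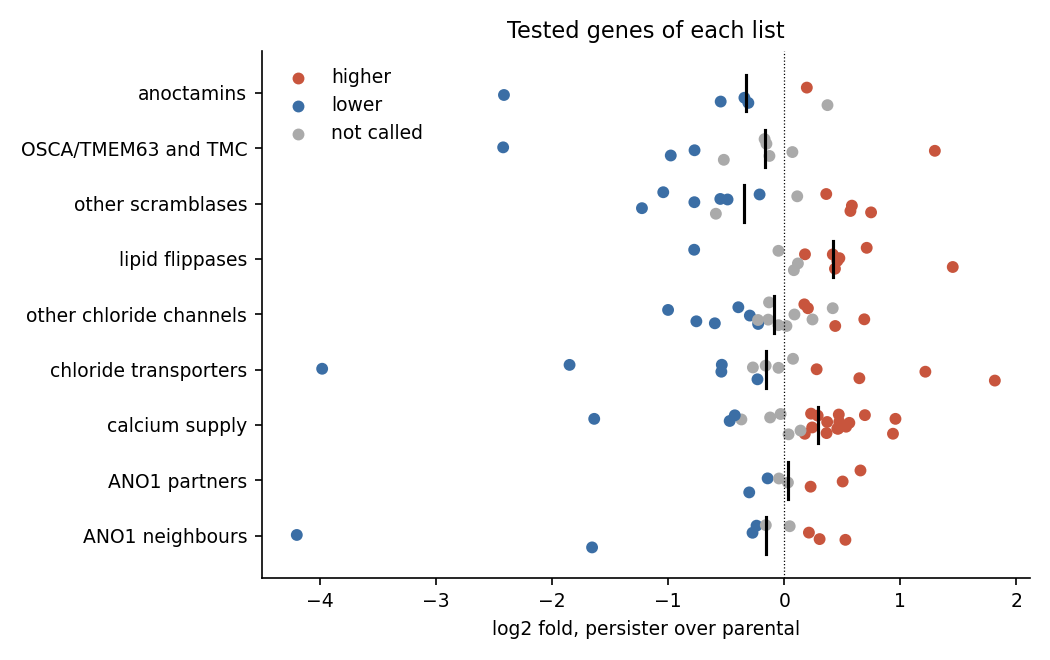
log2 difference of persister over parental cells for each tested gene of the anoctamins and of 8 lists of related genes, with 1 point per gene, colour for the call at an adjusted p of 0.01 and a black line at the median of the list. ANO1 is the anoctamin point at -2.41, the other 5 lie between -0.55 and 0.37, and the medians run from -0.35 for other scramblases to 0.42 for lipid flippases.

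All 6 epithelial markers were expressed in this carcinoma line, with a summed level of 7519 to 8051 CPM in parental and 5936 to 6298 CPM in persister libraries. All 6 were tested, 2 higher and 4 lower, beside 28.7% and 28.1% of all tested genes. Markers of interstitial cells of Cajal and smooth muscle, tissues that are also rich in ANO1, summed to 13.3 to 14.8 CPM and 3.19 to 4.35 CPM. Only 3 of these 5 were tested, with 2 lower (ETV1 and ACTA2), and KIT was at 0 in all libraries. Fibroblast markers summed to 10.4 to 11.02 CPM and 27.4 to 30.8 CPM. Only 2 of these 6 were tested, both higher (COL1A1 and PDGFRB), and COL3A1 was at 0. Leukocyte markers summed to 75.2 to 77.2 CPM and 19.7 to 22.9 CPM, nearly all of it CD68. Only 3 of these 6 were tested, with 1 lower (CD68), and CD3E was at 0. Endothelial markers summed to 8.19 to 8.88 CPM and 3.597 to 4.03 CPM. Only 2 of these 4 were tested, with 1 lower (PECAM1). Markers that were not tested had too few counts to pass the filter. The part of all these markers in the differences of the anoctamins was not tested.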

How the data were processed

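RNA of 6 libraries was analysed, 3 parental and 3 persister, grouped by the treatment and replicate number in the labels. The authors extracted poly-A RNA, sequenced pairs of 75-base reads, trimmed and filtered them with bases2fastq 1.1.0 and FASTP 0.23.3, and assigned them with Kallisto 0.46.1 to Ensembl 96 transcripts of GRCh38. They deposited estimated counts per gene symbol and per transcript as whole numbers, not normalized. The error of dividing reads between similar transcripts was not estimated, and no SD or SE here was corrected for it.

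Counts were tested in R 4.3.3 with edgeR 4.0.16 (filterByExpr, TMM, glmQLFit, glmQLFTest, Benjamini-Hochberg over all genes, limit 0.01). The SE is the log2 difference over the square root of F. CPM uses TMM-scaled library sizes. Over all genes, replicates of each group differed beyond sampling noise. That was not tested for single members, where an SD of 3 libraries can fall below counting error. Of 188753 transcripts 167067 were matched to GENCODE 44. Coordinates are from that annotation. The scripts were tested on simulated data.

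The members and lists were chosen with earlier results of these data known. Of each list up to 3 genes higher and 3 lower were named, those with the smallest p and a mean log2 CPM above 1, beside 8 genes fixed by name, the 5 most like ANO1 and transcripts with 10% of a member's counts. In the text 6 more genes were named after their values were seen. Some items these rules select are not reported here. Libraries that share a replicate number did not deviate together (correlations 0.124, 0.0236 and 0.0215), so they were not paired. Alternatives were DESeq2 1.42.0, limma 3.58.1, other scalings, no filter, sums over transcripts, a replicate block, leaving out each library, and other limits.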

Additional observations from a re-analysis of the deposited data

How the results depend on the processing

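Among the anoctamins that passed the filter, 5 were called by edgeR's main analysis and also 5 with DESeq2, limma-voom, upper quartile or library size scaling, no filter, summed transcripts and a replicate block, 6 at a limit of 0.05, and 4 to 6 with each library left out. The log2 difference of ANO1 stayed between -2.47 and -2.39 in all of these. Over all genes, 8307 of 14626 were called in the main analysis. With each library left out the calls ran from 7054 of 14815 to 8407 of 14795. No filter gave 8460 of 21639, summed transcripts 7751 of 14431 and DESeq2 7902 of 14626. Nothing is read from the steadiness of the member counts. The replicate block changed no call of a gene named in the text, although the libraries share only a number and are not paired, and it took the calls over all genes from 8307 to 8671. When a fold change above 2 was also asked for, the calls were 1 of the anoctamins (ANO1), 2 of the TMEM63 and TMC genes, 2 of other scramblases, 1 of flippases, 1 of other chloride channels, 4 of chloride carriers, 1 of calcium genes, 0 of ANO1 partners and 2 of ANO1 neighbours, since the setting itself removes smaller differences. At a limit of 0.05 the TMEM63 and TMC genes had 7 calls. The share of all tested genes called at a limit of 0.05, or with a fold change above 2, is not given here. Nothing is therefore read from the counts at those settings. Other chloride channels had 6 to 11 calls with each library left out. There were 2 reversals, TMC4 with summed transcripts (0.43) and FADD by library size alone (-0.0071), and their cause was not tested. With gene counts over the longest transcript, the levels in parental and persister cells were 71.8 and 13.4 TPM for ANO1, 85.7 and 97.6 for ANO6, 2.30 and 2.97 for ANO7, 9.54 and 7.48 for ANO8, 3.05 and 2.07 for ANO9, and 37.3 and 29.98 for ANO10, since each count was set over 1 fixed length. The median log2 difference of all genes was -0.06 by library size alone, so differences near 0.1 depend on the scaling. An exact permutation p over 3 against 3 libraries cannot be smaller than 0.1.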
